A study of Homo sapiens with 16 samples.

Results

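Chromosomal DNA is copied once per cell cycle by a set of proteins whose genes are switched on as a cell leaves G1 and enters S phase. The RNA level of 46 such genes was followed in 16 RNA-seq libraries of A549 and H2023, established human cell lines of non-small cell lung cancer. The 46 genes were taken by symbol from a list, with no threshold on measured values, out of 18227 genes in the deposited tables. In each line, wild-type cells were compared with cells labelled as a knockout of ZC3H12A, the gene of the RNase Regnase-1, and each genotype was grown either in normal culture for 3 days or in a stem-cell-enriched (oncosphere) culture for 7 days. The 8 groups of line, genotype and culture held 2 libraries each. A single knockout clone stood for each line, and whatever else distinguishes that clone is part of every genotype difference. Culture type and days in culture changed together and cannot be told apart. The labels do not say that the replicates were separate cultures, so p-values measure only the spread between these libraries, which may be technical.

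As background, replication starts with licensing. The origin recognition complex (with ORC1 and ORC6), CDC6 and CDT1 load the MCM2 to MCM7 helicase onto DNA in G1, and geminin (GMNN) blocks CDT1 afterwards. CDC45 and the GINS proteins then turn the loaded helicase into the active replication fork, where the sliding clamp PCNA, its loader (RFC1 to RFC5), primase and the replicative polymerases work on nucleotides supplied by RRM1, RRM2, TYMS and TK1. Cyclin D1 (CCND1) and its kinases inactivate the retinoblastoma protein, which frees E2F transcription factors to switch on cyclin E and most genes of this group. Dividing tumour cells keep the group high, and cells that leave the cycle lower it.

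The promoters are shown first because E2F factors act there. A window of 250 bases before to 50 bases after the start was at hand for 41 of the 46 genes in RefSeq promoters of GRCh38.p14, all except CCND1, CCNE2, GINS4, MCM4 and MCM5. The E2F-type motifs TTTCCCGC, TTTCGCGC, TTTGCCGC and TTTGGCGC were searched on both strands, so that GCGGGAAA, GCGCGAAA, GCGGCAAA and GCGCCAAA also counted, and overlapping positions were kept. Of the 41 windows 21 (51.2%) held a motif, against 908 of 27305 promoters of the same length (3.33%) and 627 of the 12316 promoters of genes in the tables (5.09%). The share was 3 of 26 (11.5%) for G2/M and mitosis genes and 8 of 34 (23.5%) for other DNA replication genes. With the pair TTTCCCGC and TTTGGCGC alone it was 19 of 41 (46.3%) against 2.31% of all promoters. A match describes these letters and not a bound site.

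The promoters of 5 genes that carry the results below, printed from 250 bases before to 30 after the start with motif letters in capitals, belong to 2 subunits of the helicase, the licensing factor CDC6, the checkpoint adaptor CLSPN and the transcription factor E2F1. MCM6 had 4 motif positions in its window, the most of any member, and MCM2 and E2F1 had 2 each. Overlapping matches were counted apart. The 4 positions of MCM6 lie in 2 stretches of capitals and the 2 of MCM2 in a single stretch, while the 2 of E2F1 are separate. The windows lie at chr3:127598161-127598440 (plus strand), chr2:135876414-135876693 (minus strand), chr17:40287629-40287908 (plus strand), chr1:35769949-35770228 (minus strand) and chr20:33686356-33686635 (minus strand).
MCM2: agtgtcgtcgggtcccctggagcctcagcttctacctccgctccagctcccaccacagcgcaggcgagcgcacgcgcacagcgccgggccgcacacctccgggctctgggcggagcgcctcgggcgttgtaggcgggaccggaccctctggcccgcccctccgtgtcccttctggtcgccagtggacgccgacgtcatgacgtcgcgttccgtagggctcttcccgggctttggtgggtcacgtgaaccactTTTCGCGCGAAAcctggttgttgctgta
MCM6: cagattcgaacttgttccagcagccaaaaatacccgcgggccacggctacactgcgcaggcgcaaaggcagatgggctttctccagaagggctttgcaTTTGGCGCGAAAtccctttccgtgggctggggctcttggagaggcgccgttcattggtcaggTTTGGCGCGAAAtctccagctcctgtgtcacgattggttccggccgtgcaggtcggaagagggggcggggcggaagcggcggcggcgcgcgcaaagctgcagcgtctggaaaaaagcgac
CDC6: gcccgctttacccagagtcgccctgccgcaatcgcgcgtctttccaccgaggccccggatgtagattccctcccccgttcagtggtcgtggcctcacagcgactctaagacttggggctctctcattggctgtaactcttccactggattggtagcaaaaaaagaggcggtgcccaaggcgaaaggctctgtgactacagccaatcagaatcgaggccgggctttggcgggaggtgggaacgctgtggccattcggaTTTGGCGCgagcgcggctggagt
CLSPN: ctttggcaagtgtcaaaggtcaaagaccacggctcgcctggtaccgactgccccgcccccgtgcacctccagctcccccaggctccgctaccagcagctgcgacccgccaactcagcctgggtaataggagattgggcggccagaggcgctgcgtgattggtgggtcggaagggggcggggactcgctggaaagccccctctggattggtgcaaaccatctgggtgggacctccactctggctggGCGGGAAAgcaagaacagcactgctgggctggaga
E2F1: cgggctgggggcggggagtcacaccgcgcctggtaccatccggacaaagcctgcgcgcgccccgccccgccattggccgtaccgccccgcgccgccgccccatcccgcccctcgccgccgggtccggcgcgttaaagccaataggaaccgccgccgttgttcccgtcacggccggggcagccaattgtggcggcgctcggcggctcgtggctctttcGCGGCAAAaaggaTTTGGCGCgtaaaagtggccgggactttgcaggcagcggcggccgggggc
No match was found in the windows of RRM2, TK1, MCM10, CDC45 and CCNE1, which says only that these letters are absent from them. Members with a motif (21) and without one (20) had medians close to each other in the comparisons below. From normal to enriched culture in A549 wild type, for example, the median log2 fold change was -2.63 with a motif and -2.45 without one.

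Levels are given in TPM, a read density per transcript length scaled to a common total per library, made by the authors. Each library summed to between 991838 and 998125 TPM over the genes of the tables, and between 13824 and 14508 genes reached 1 TPM. TPM keeps no sequencing depth. In the authors' deposited tables the mean normalised count of a member over the 4 libraries of a table was between 45.7 and 10285, so that the lowest members have few reads behind them. The mitochondrial share of TPM was 10.3% to 18.7% in normal culture and 19.5% to 25.6% in enriched culture. Of 7 epithelial markers, the keratins KRT8, KRT18 and KRT7 had at least 630.2 TPM in every library and CDH1 at least 12.7 TPM. KRT19 ranged from 0.29 to 798 TPM, EPCAM from 0.37 to 51.0 TPM and CLDN4 from 0.24 to 7.18 TPM, so that these 3 were near 0 in 1 or more libraries. The fibroblast markers measured (5 of 8) summed to at most 12.4 TPM and PECAM1, the endothelial marker measured (1 of 6), reached 2.76 TPM. LUM, FAP, LYZ and PECAM1 were at 0.0 in 1 or more libraries. The leukocyte markers measured (3 of 8: CD68, CD14 and LYZ) summed to 31.4 to 245 TPM, most of it CD68. The mRNA of the targeted gene, ZC3H12A, was higher with the knockout label in 3 of 4 comparisons, all but A549 normal culture. There it had 30.7 and 34.9 TPM (wild type) against 16.9 and 19.9 TPM (knockout label). In A549 enriched culture it had 48.5 and 49.2 against 60.2 and 55.6 TPM. In H2023 it had 26.8 and 29.9 against 41.5 and 41.5 TPM in normal culture, and 32.5 and 26.4 against 94.6 and 69.2 TPM in enriched culture. Neither the edit itself nor the protein was examined, and libraries are therefore called by their label throughout.

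All 46 members were expressed. Of them 44 had 1 TPM or more in all 16 libraries, the exceptions being CCNE2 and CLSPN in A549 enriched wild type. The highest value of a member was between 3.30 times (RFC1) and 48.9 times (CLSPN) its lowest. Over the members, the median level was 52.1 and 43.9 TPM (wild type) and 35.4 and 33.8 TPM (knockout label) in A549 normal culture. In A549 enriched culture it was 7.18 and 8.53 TPM against 13.2 and 14.3 TPM. In H2023 it was 44.7 and 43.1 TPM (wild type) and 47.6 and 47.6 TPM (knockout label) in normal culture, and 20.9 and 18.6 TPM and 16.4 and 17.2 TPM in enriched culture. Enriched culture was thus below normal culture in every pair of groups, and the order of the genotypes turned over between the cultures in both lines. Replicates differed by shifts that most members shared. In A549 enriched culture replicate 2 was above replicate 1 in 40 of 46 members in wild type (median difference 0.35 on the log2 scale). With the knockout label it was above in 42 of 46 (0.28). In A549 normal culture replicate 2 was below replicate 1 in 38 of 46 members in wild type (-0.165) and in 38 of 46 with the knockout label (-0.157). It was also below in 37 of 46 in H2023 enriched wild type (-0.185). The other H2023 groups were more evenly split, with 27 (normal wild type), 26 (normal, knockout label) and 21 (enriched, knockout label) of 46 higher in replicate 2.

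**Figure D1:**
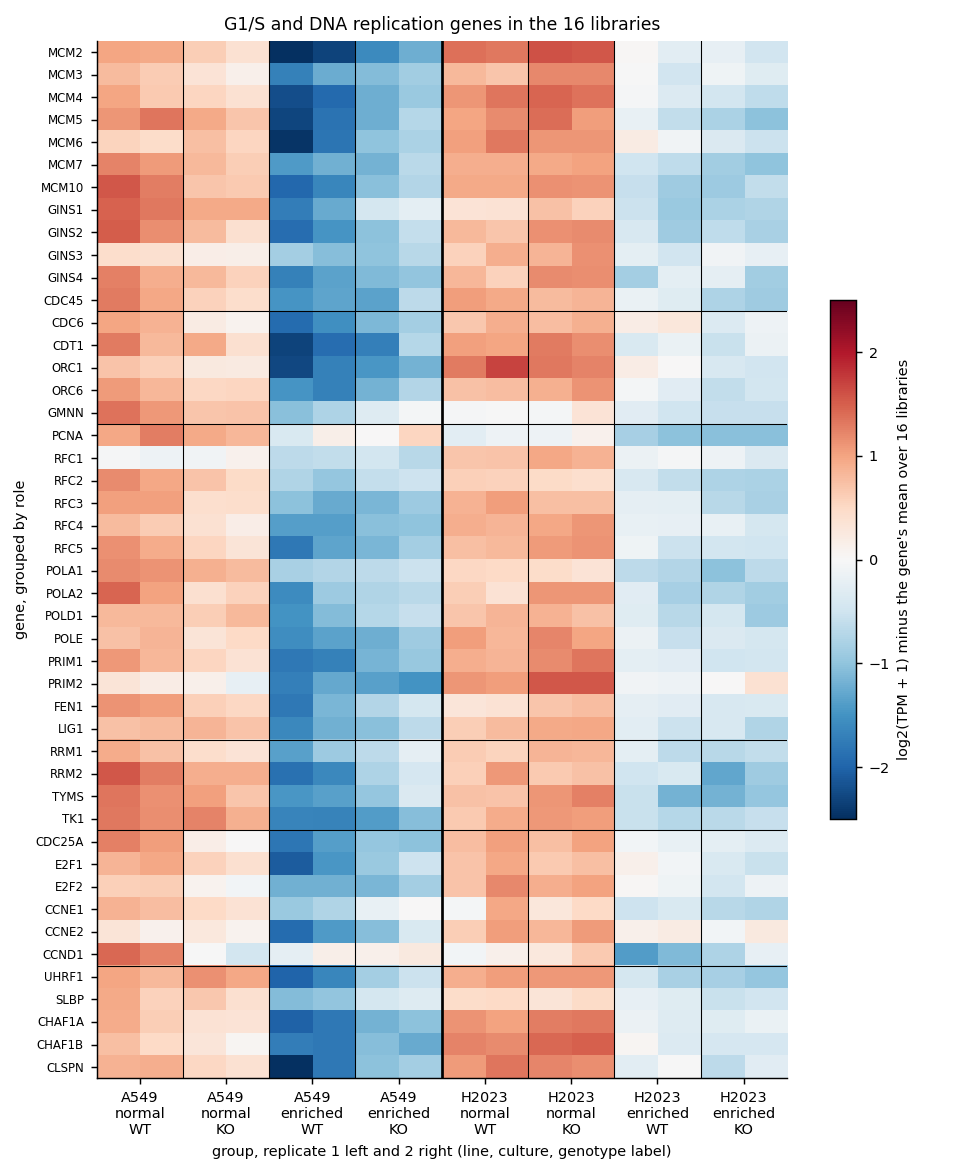
Level of each of the 46 genes (rows, grouped by role) in the 16 libraries (columns, replicate 1 left and 2 right in each group), as log2(TPM + 1) minus the gene's mean over all libraries. Blue (below the gene's mean) is deepest in A549 enriched wild type, where PCNA, RFC1 and CCND1 stay near the middle of the scale.

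**Figure D2:**
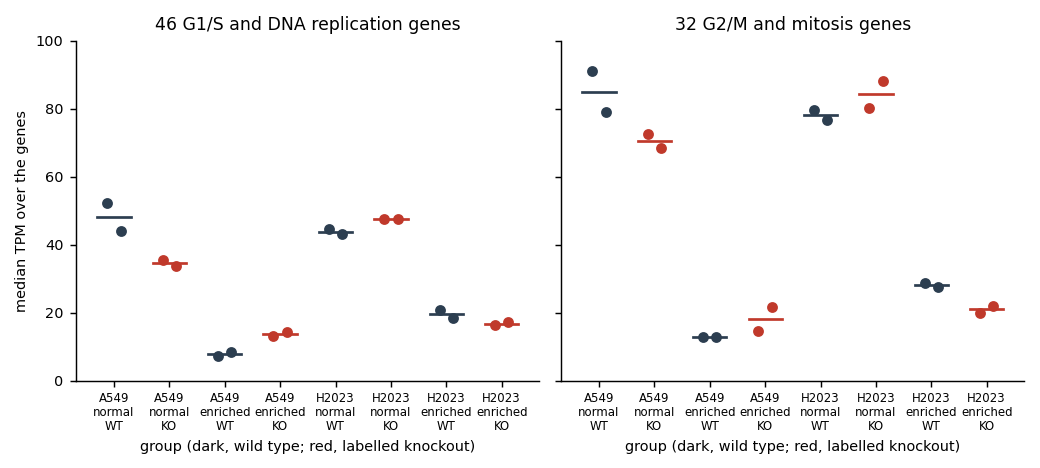
Median TPM over the 46 G1/S and DNA replication genes (left) and over 32 G2/M and mitosis genes (right) in each library (points; bars, mean of 2). The left panel falls from 52.1 and 43.9 to 7.18 and 8.53 TPM in A549 wild type and from 44.7 and 43.1 to 20.9 and 18.6 TPM in H2023 wild type.

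The first question was how the genes differed between enriched and normal culture. They fell almost without exception. In A549 wild type all 46 were lower in enriched culture (limma, adjusted p under 0.05 over all 18227 genes), where 21.6% of all genes were lower and 19.0% higher. The median log2 fold change was -2.53 (lowest -3.47, highest -0.57), against -0.01 over all genes. In the A549 libraries labelled knockout 43 were lower and 0 higher, with 9.87% of all genes lower and 10.9% higher, and the median was -1.40 (lowest -2.30, highest 0.42). In H2023 wild type 43 were lower and 0 higher, with 17.4% of all genes lower and 3.96% higher, and the median was -1.16 (lowest -1.67, highest -0.36). In the H2023 libraries labelled knockout all 46 were lower, with 19.2% of all genes lower and 7.68% higher, and the median was -1.52 (lowest -2.26, highest -0.72). Fold changes are on the log2(TPM + 1) scale, which understates the change of low genes. In bulk RNA, fewer cells in S phase and less of this RNA per cell cannot be told apart.

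The share of mitochondrial RNA was higher in enriched culture, and the comparison was repeated without it. With mitochondrial genes left out and the rest rescaled, the medians were -2.42 and -1.37 in A549 and -0.93 and -1.31 in H2023 (wild type, then knockout label). In the same order 46, 43, 40 and 42 members were lower, and the share of all genes under this scaling was not set beside these counts. The median over all genes was itself -0.18 in H2023 wild type and -0.12 in the H2023 libraries labelled knockout. With libraries set to a common median the members' medians there were -0.92 and -1.37. Sums of cell type markers moved with culture as well. The leukocyte markers measured went from 58.9 and 45.5 to 245 and 151 TPM in A549 wild type and from 48.0 and 35.3 to 79.1 and 58.6 TPM with the knockout label. In H2023 they overlapped in wild type (40.3 and 36.7 in normal, 31.4 and 90.3 TPM in enriched culture) and went from 38.4 and 32.8 to 73.3 and 133 TPM with the knockout label. The epithelial sum went from 9398 and 8750.4 to 4331 and 4570 TPM in H2023 wild type, from 13033 and 12327 to 7768 and 8275 TPM with the knockout label, and from 9347 and 9175 to 6673 and 7549 TPM in A549 wild type, but was 5010 and 2571 TPM in normal and 5662 and 7828 TPM in enriched A549 culture with the knockout label. Their part in the result was not tested.

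The helicase and its partners (12 genes) were all lower in each of the 4 culture comparisons, with medians of -2.77 and -1.54 in A549 and -1.32 and -1.80 in H2023. MCM2, a helicase subunit with 2 overlapping motif positions in its promoter, fell from 91.0 and 87.6 to 6.21 and 8.25 TPM in A549 wild type. Its log2 fold change of -3.47 (SE 0.17, adjusted p = 3.32e-05 by limma) was the largest fall of the group. In the A549 libraries labelled knockout it fell from 69.8 and 59.1 to 14.2 and 18.7 TPM (-1.91, SE 0.17). In H2023 it fell from 118 and 115 to 46.4 and 37.4 TPM in wild type (-1.46) and from 138 and 134 to 38.9 and 32.01 TPM with the knockout label (-1.92). No enriched library reached the lowest normal library of its line and genotype for MCM2, and A549 enriched wild type was the lowest group. MCM5, another subunit, went from 117 and 137 to 10.2 and 14.3 TPM in A549 wild type (-3.29) and from 144 and 112 to 30.9 and 26.1 TPM in the H2023 libraries labelled knockout (-2.12). MCM10, which helps to start the helicase, fell from 40.3 and 33.2 to 2.6 and 3.55 TPM in A549 wild type (-3.21) and from 25.9 and 25.9 to 8.47 and 6.59 TPM in H2023 wild type (-1.67), where it was the member that fell most. The subunits MCM4 and MCM7 were among the 8 members that fell most in both H2023 comparisons, with log2 fold changes of -1.41 and -1.48 in wild type and -1.95 and -1.92 with the knockout label. GINS2, a subunit of the active helicase complex, fell from 36.6 and 28.4 to 2.5 and 3.71 TPM in A549 wild type (-3.03) and from 22.1 and 20.3 to 9.0 and 6.11 TPM in H2023 wild type (-1.40). CDC45, its partner, fell from 53.2 and 42.2 to 6.99 and 7.89 TPM and from 44.5 and 41.7 to 18.6 and 16.9 TPM in the same groups. GINS4 fell by 1.74 on the log2 scale in the A549 libraries labelled knockout, from 31.9 and 27.1 to 7.71 and 8.53 TPM. GINS3 moved least of the 12 in A549 wild type (-1.38).

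Licensing genes (5) were all lower in 3 of the culture comparisons, and 4 of 5 were lower in H2023 wild type. CDT1, the MCM loader, fell from 46.3 and 32.8 to 2.86 and 4.13 TPM in A549 wild type (-3.17, SE 0.35) and from 36.2 and 24.3 to 4.93 and 10.8 TPM with the knockout label (-1.88). Its enriched replicates were far apart with the knockout label, and without A549 normal knockout replicate 1 its adjusted p was 0.0603 by limma. In H2023 CDT1 fell from 38.1 and 37.4 to 13.9 and 16.2 TPM in wild type (-1.27). CDC6, the other loading factor, fell from 81.1 and 74.2 to 9.85 and 13.2 TPM in A549 wild type (-2.66) but only from 64.8 and 75.9 to 46.1 and 49.4 TPM in H2023 wild type (-0.55, SE 0.12, adjusted p = 0.0246). ORC1, the largest subunit of the origin recognition complex, fell from 20.2 and 18.6 to 1.69 and 3.01 TPM and from 30.9 and 40.7 to 13.7 and 12.1 TPM in the same groups. Geminin (GMNN) fell in A549 wild type from 65.5 and 54.5 to 11.7 and 14.3 TPM (-2.12). In H2023 wild type it had 24.4 and 24.97 TPM in normal and 20.4 and 17.6 TPM in enriched culture, a log2 fold change of -0.36 (SE 0.15) that did not pass the threshold (adjusted p = 0.144).

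Clamp, clamp loader and polymerase genes (14) were all lower except PCNA in the A549 libraries labelled knockout, with medians of -2.13 and -1.37 in A549 and -1.10 and -1.41 in H2023, and RFC1 and PCNA were the least changed members of all in A549 wild type. RFC1, the large subunit of the loader, had 22.1 and 20.5 TPM in normal and 13.9 and 14.3 TPM in enriched A549 wild type (-0.57, SE 0.14). PCNA, the clamp, was by far the most abundant of the 14 by TPM, which is per length, and fell from 533 and 666 to 209 and 303 TPM there (-1.24). In the A549 libraries labelled knockout PCNA had 527 and 484 TPM in normal and 277 and 398 TPM in enriched culture, and its log2 fold change of -0.60 (SE 0.22) missed the threshold (adjusted p = 0.0957). Enriched libraries of PCNA lay below the normal ones of their genotype without overlap. RFC3, a small loader subunit, fell from 43.5 and 43.8 to 9.77 and 8.19 TPM in A549 wild type and from 39.4 and 44.4 to 17.8 and 17.6 TPM in H2023 wild type. POLA1, the catalytic subunit of the polymerase that starts new strands, fell from 22.9 and 21.99 to 5.0 and 5.3 TPM and from 14.02 and 13.9 to 5.68 and 5.34 TPM, and POLE, of the leading-strand polymerase, from 40.01 and 43.8 to 7.37 and 8.81 TPM and from 50.02 and 43.1 to 21.3 and 15.7 TPM. For these 3 genes enriched and normal libraries did not overlap in either line. LIG1, which seals the nicks between new fragments, was among the 8 that fell most in the A549 libraries labelled knockout, from 77.1 and 69.3 to 20.0 and 26.5 TPM. POLA2, the accessory subunit of that starting polymerase, fell from 31.7 and 31.9 to 8.04 and 7.36 TPM in the H2023 libraries labelled knockout (-1.92). A second Ensembl gene with the symbol POLA2 overlaps it on the same strand. The authors' counting could have split reads between the pair, and the levels of POLA2 are uncertain. Other measured genes overlap PRIM1 (NACA), FEN1 (FADS2), RFC3 (AL161891.1) and CHAF1B (MORC3) on the same strand, with the same limit.

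Nucleotide supply genes (4) all fell in the 4 comparisons. RRM2, the small subunit of ribonucleotide reductase, went from 254 and 209.7 to 22.6 and 27.4 TPM in A549 wild type (-3.16, SE 0.15) and from 129 and 182 to 60.2 and 65.2 TPM in H2023 wild type (-1.28, SE 0.20). TK1, thymidine kinase, was the member that fell most in the A549 libraries labelled knockout, from 152 and 118 to 23.4 and 30.04 TPM (-2.30), and fell from 159 and 144 to 19.6 and 19.2 TPM in A549 wild type. TYMS, thymidylate synthase, fell most in the H2023 libraries labelled knockout, from 194 and 218 to 38.97 and 45.9 TPM (-2.26, SE 0.20). In H2023 wild type it went from 151 and 149 to 61.4 and 39.3 TPM (-1.59), with the enriched replicates well apart but both under the normal ones. TYMS overlaps ENOSF1 on the opposite strand.

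E2F and cyclin genes (6) were all lower in A549 wild type and in the H2023 libraries labelled knockout, and 4 of 6 were lower in each of the other comparisons. E2F1 fell from 37.9 and 41.2 to 4.05 and 6.8 TPM in A549 wild type (-2.69) and from 34.1 and 40.8 to 22.4 and 19.3 TPM in H2023 wild type (-0.81). Cyclin E1 (CCNE1) fell from 33.3 and 31.2 to 8.84 and 10.1 TPM in A549 wild type. In H2023 wild type it had 17.2 and 35.8 TPM in normal and 12.1 and 13.3 TPM in enriched culture, and did not pass the threshold (adjusted p = 0.0805). Its normal replicates lay far apart there, both above the enriched ones. Cyclin E2 (CCNE2) was low, with 7.65 and 6.44 TPM in normal and 0.83 and 1.59 TPM in enriched A549 wild type (-1.88), and missed the threshold in H2023 wild type (-0.66, adjusted p = 0.0688) and in the A549 libraries labelled knockout (-0.89, adjusted p = 0.0548). Cyclin D1 (CCND1) was the exception among the 46. It fell in A549 wild type from 181 and 156 to 56.1 and 73.2 TPM (-1.38, SE 0.18). In the A549 libraries labelled knockout it had 65.3 and 47.96 TPM in normal and 72.05 and 78.3 TPM in enriched culture (0.42, SE 0.18, adjusted p = 0.139), the one positive value. Both enriched libraries were above both normal ones there, though the difference did not pass the test.

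Chromatin, histone mRNA and checkpoint genes (5) were all lower in each of the 4 comparisons. CLSPN, the adaptor through which the checkpoint kinase CHK1 is activated, fell from 14.6 and 14.8 to 0.42 and 1.47 TPM in A549 wild type (-3.07, SE 0.26), with the enriched replicates far apart. UHRF1, which passes DNA methylation on to new strands, fell from 52.9 and 46.3 to 5.79 and 7.73 TPM in A549 wild type (-2.71) and from 49.6 and 55.02 to 18.97 and 14.5 TPM in H2023 wild type (-1.60). In the libraries labelled knockout UHRF1 fell by 1.74 in A549 and by 1.98 in H2023 on the log2 scale. SLBP, which binds the stem-loop of histone mRNAs, fell from 76.2 and 58.7 to 17.96 and 19.3 TPM and from 54.2 and 55.6 to 33.7 and 31.5 TPM in the wild types.

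The culture effects of the 46 genes correlated between the lines, which share no libraries, with Pearson's r = 0.481 and Spearman's rho = 0.535 in wild type and r = 0.693 and rho = 0.81 in the libraries labelled knockout. These values run across genes, which are not independent replicates and which share the level-dependent understatement of the scale, and describe the 46 only. Of the 10 members that fell most in each wild-type line, 6 were shared: GINS2, MCM10, MCM2, MCM4, MCM5 and TK1.

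**Figure D3:**
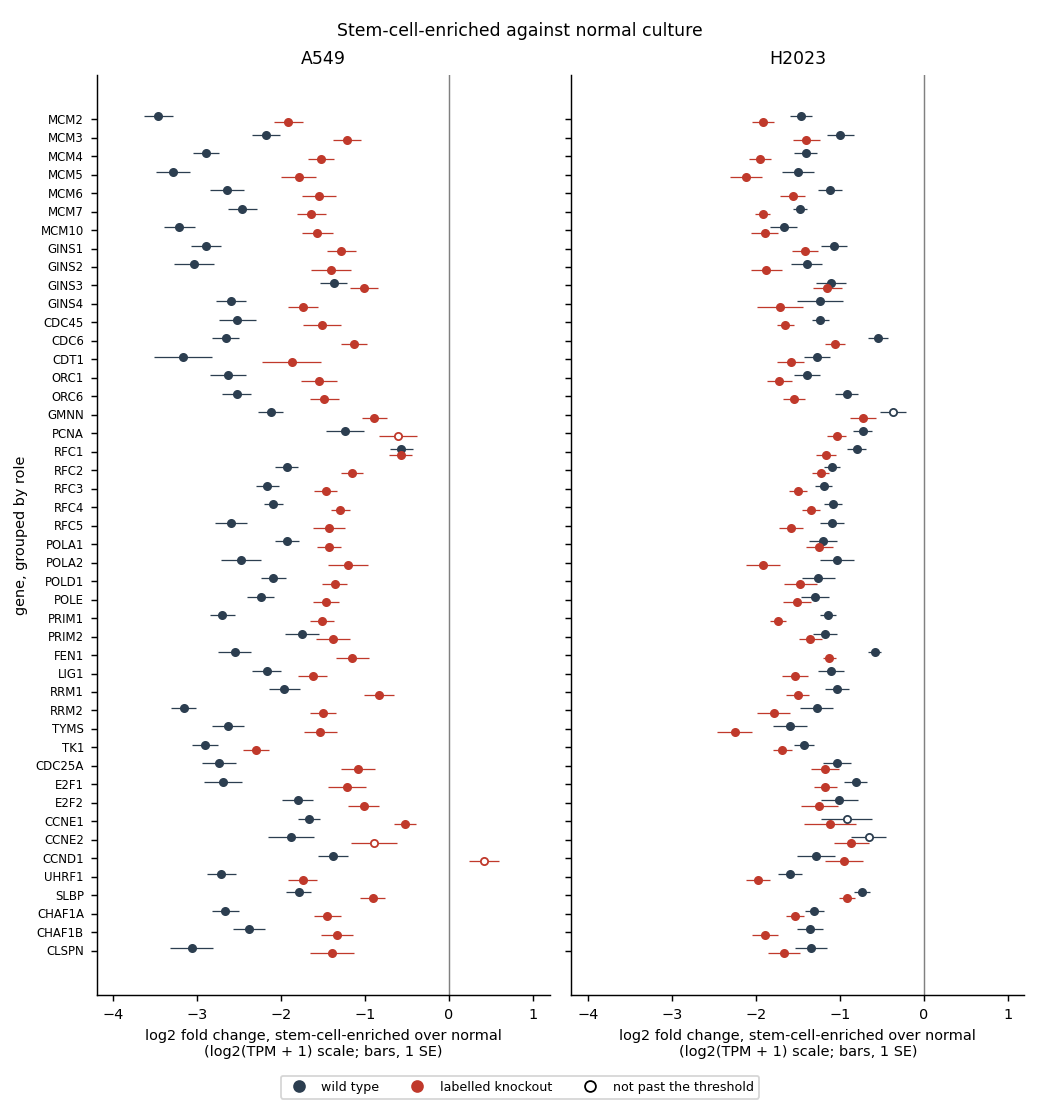
Log2 fold change of each gene, enriched over normal culture, in A549 (left) and H2023 (right), for wild type (dark) and the libraries labelled knockout (red). Bars are 1 SE, and open circles did not pass the threshold. In A549 the red points lie to the right of the dark ones (medians -1.40 and -2.53), except RFC1, and in H2023 to the left (-1.52 and -1.16), except CCND1.

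The next comparison asked how libraries labelled knockout differed from wild type within a culture. In A549 normal culture most members were lower with the knockout label, though few passed the test. Limma called 6 of 46 lower and 0 higher, where 8.83% of all genes were lower and 6.52% higher, and 27 members had an unadjusted p under 0.05, as did 5786 of all genes. The median log2 fold change was -0.43 (lowest -1.57, highest 0.15), against -0.03 over all genes, and 42 of 46 were negative. The authors' deposited table has 22 members lower and 0 higher at an adjusted p under 0.05, where 10.9% of its tested genes were lower and 11.2% higher, and 5 of the 6 limma calls are among them. The limma count depended on single libraries, and the share of all genes was not set beside the counts that follow. It was 1, 2, 1 and 1 without wild-type replicate 1, wild-type replicate 2, knockout replicate 1 and knockout replicate 2 of normal culture, and 10 without wild-type replicate 2 of enriched culture, which enters through the shared spread. The summed epithelial markers also moved with this comparison, with 9347 and 9175 TPM in wild type and 5010 and 2571 TPM with the knockout label, and their part in the result was not tested.

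The 6 genes were 2 regulators of the G1/S step, 2 helicase and licensing factors and 2 clamp loader subunits. CCND1 fell from 181 and 156 to 65.3 and 47.96 TPM, a log2 fold change of -1.57 (SE 0.18, adjusted p = 0.00165), and it was the only one of the 6 that passed with any 1 of the 8 A549 libraries left out. CDC25A, the phosphatase that activates cyclin E and CDK2, fell from 17.8 and 15.3 to 7.83 and 6.93 TPM (-1.06, SE 0.20, adjusted p = 0.0127). CDC6 fell from 81.1 and 74.2 to 46.6 and 42.9 TPM (-0.78, adjusted p = 0.0157). For these 3 genes, which were chosen for their calls, both libraries labelled knockout were below both wild-type libraries. That held for 37 of the 46 members and 34.6% of all genes, and the reverse for 0 members and 27.2% of all genes. MCM10 fell from 40.3 and 33.2 to 21.9 and 21.2 TPM (-0.74), RFC3 from 43.5 and 43.8 to 28.6 and 28.9 TPM (-0.59) and RFC4, another small loader subunit, from 77.5 and 69.5 to 57.6 and 49.9 TPM (-0.45). The calls of CDC25A, CDC6, MCM10, RFC3 and RFC4 were each lost without 1 or more single libraries, at adjusted p-values of 0.0508 to 0.188 by limma, and RFC4 is not called in the authors' deposited table (-0.40, adjusted p = 0.0757).

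Other members of the group had values below 0 that did not pass by limma (levels are given as wild type against knockout label). POLA2 had 41.0 and 29.8 TPM in wild type and 19.04 and 21.7 TPM with the knockout label (-0.75, adjusted p = 0.0716), and GINS2 36.6 and 28.4 against 21.8 and 16.3 TPM (-0.74, adjusted p = 0.072). RRM2 had 254 and 209.7 against 161 and 160.5 TPM (-0.52, adjusted p = 0.0577). The second row with the POLA2 symbol had a log2 fold change of -0.96 (adjusted p = 0.056 by limma). The authors' deposited table calls POLA2, GINS2 and RRM2 lower (adjusted p = 4.19e-05, 0.007 and 0.00125), and the second POLA2 row as well (adjusted p = 0.00382). Genes with positive values were UHRF1 (0.15), MCM6 (0.13), RFC1 (0.08) and LIG1 (0.01), none past the threshold.

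In A549 enriched culture the direction was the opposite. All 46 log2 fold changes were positive, and limma called 23 members higher and 0 lower, where 9.39% of all genes were higher and 10.1% lower. The median was 0.64 (lowest 0.08, highest 1.24), against 0.03 over all genes. The authors' deposited table also has 23 higher and 0 lower, where 9.29% of its tested genes were higher and 11.4% lower, and 20 of these are shared with limma. Here too the count rested on single libraries: it was 8 without wild-type replicate 1 and 6 without knockout replicate 2 of enriched culture, and 9 when only the 4 libraries of the comparison were fitted. The median was 0.50 to 0.80 over all single libraries left out. The 3 leukocyte markers measured summed to 245 and 151 TPM in wild type and 79.1 and 58.6 TPM with the knockout label, and their part in the result was not tested. PTPRC, which defines leukocytes, the T cell genes CD3E and CD3D, MS4A1 and CSF1R were not analysed here.

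Of the 12 helicase genes 7 rose, with a median of 0.89 over the 12. MCM6 rose from 6.97 and 11.3 to 20.6 and 24.0 TPM (1.23, SE 0.20, adjusted p = 0.00445), MCM5 from 10.2 and 14.3 to 22.7 and 32.3 TPM (1.10, adjusted p = 0.00855) and MCM2 from 6.21 and 8.25 to 14.2 and 18.7 TPM (1.09, adjusted p = 0.00403). GINS1, a subunit of the active helicase, rose from 4.39 and 6.53 to 12.2 and 14.3 TPM (1.16, SE 0.17). For all 4 genes, chosen for their calls, both libraries labelled knockout lay above both wild-type libraries, as in 39 of the 46 members and 32.7% of all genes (the reverse held for 0 members and 27.8% of all genes), and all 4 stayed below the normal-culture libraries of A549. CDC45 had 6.99 and 7.89 TPM in wild type and 7.74 and 12.9 TPM with the knockout label (0.39, adjusted p = 0.272), with overlapping groups. RRM2 rose from 22.6 and 27.4 to 49.6 and 63.6 TPM (1.14, SE 0.15, adjusted p = 0.00192), and TYMS and RRM1 rose as well (0.73 and 0.70). TK1 had 19.6 and 19.2 against 23.4 and 30.04 TPM (0.43, adjusted p = 0.0933).

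Among the regulators, E2F1 rose from 4.05 and 6.8 to 10.2 and 13.96 TPM (1.05, SE 0.22, adjusted p = 0.0148), CCNE1 from 8.84 and 10.1 to 15.5 and 17.8 TPM (0.75) and CCNE2 from 0.83 and 1.59 to 2.31 and 4.29 TPM (0.94). CCND1 overlapped, with 56.1 and 73.2 TPM in wild type and 72.05 and 78.3 TPM with the knockout label (0.23, adjusted p = 0.431). CLSPN rose from 0.42 and 1.47 to 3.15 and 3.69 TPM (1.24), the largest value of the 46, with wild-type replicates well apart from each other. UHRF1 rose from 5.79 and 7.73 to 14.1 and 17.7 TPM (1.13) and SLBP from 17.96 and 19.3 to 28.6 and 31.02 TPM (0.65). Of the 5 licensing genes, CDC6 rose from 9.85 and 13.2 to 18.02 and 21.9 TPM (0.75) and GMNN from 11.7 and 14.3 to 19.8 and 24.4 TPM (0.72), and ORC6 passed too (0.62). ORC1 (1.69 and 3.01 against 3.71 and 4.73 TPM) and CDT1 (2.86 and 4.13 against 4.93 and 10.8 TPM) did not pass by limma, with adjusted p-values of 0.0718 and 0.108. Only 3 of the 14 clamp and polymerase genes passed: FEN1, which trims flaps between fragments (0.88), the primase subunit PRIM1 (0.68) and the lagging-strand polymerase subunit POLD1 (0.64). RFC3, POLA1 and POLE had 0.11, 0.18 and 0.39. ORC6, PRIM1 and CCNE2 were called by limma alone (adjusted p = 0.0692, 0.1315 and 0.1409 in the authors' deposited table). GINS4, CDT1 and LIG1 were called in the authors' deposited table alone. The effect of single libraries is given by gene only for the 8 members with the largest rises. The calls of CLSPN, E2F1 and MCM5 were lost without enriched knockout replicate 2 and those of E2F1 and MCM5 without enriched wild-type replicate 1, at adjusted p-values of 0.0541 to 0.0974 by limma.

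**Figure D4:**
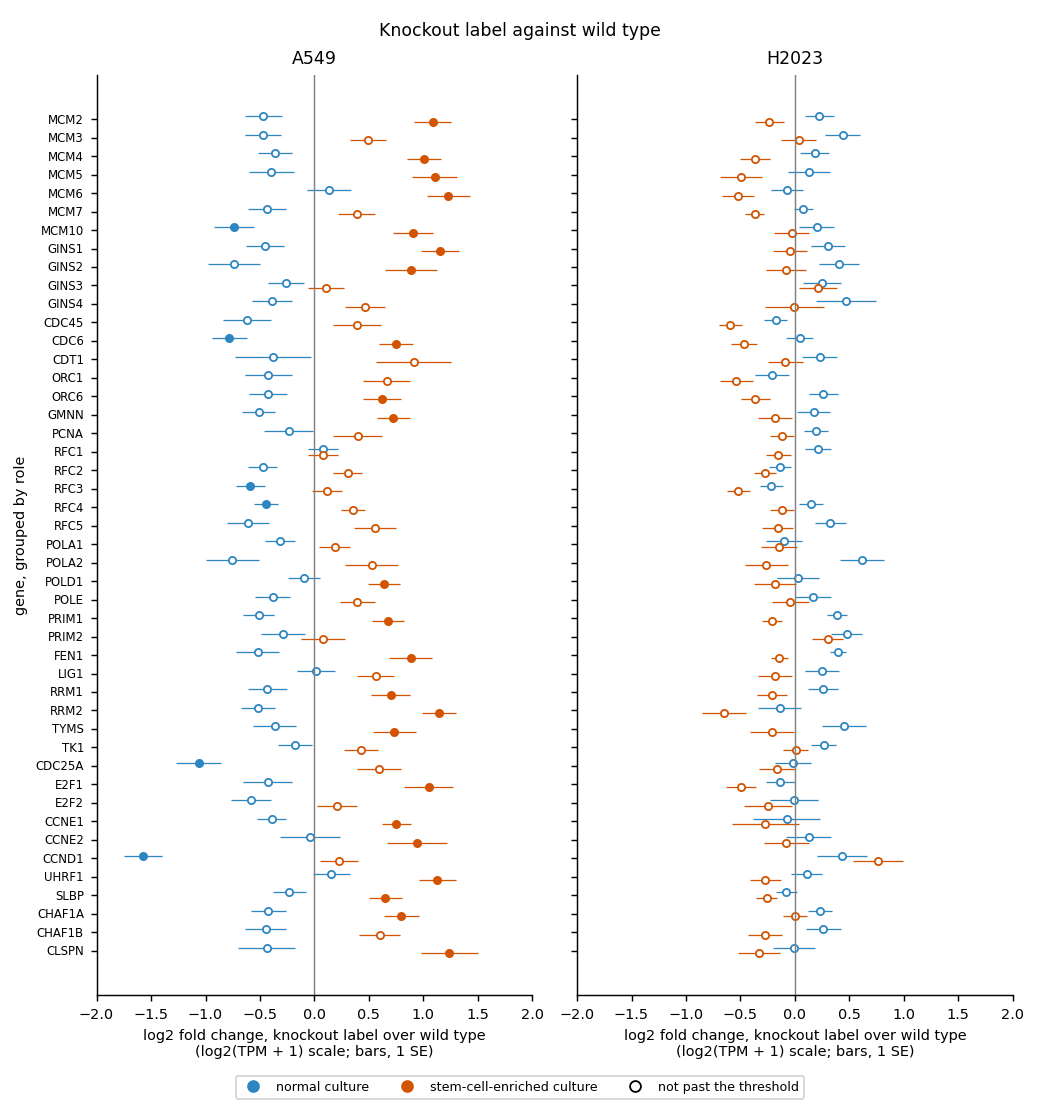
Log2 fold change of each gene, knockout label over wild type, in A549 (left) and H2023 (right), for normal (blue) and enriched culture (orange). Bars are 1 SE, and open circles did not pass the threshold. In A549 the medians are -0.43 and 0.64, and in H2023, where no point is filled, 0.19 and -0.20.

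In H2023 the medians had the opposite sign to those of A549 in each culture, and few members passed any test. In normal culture limma called 0 of 46 members in either direction, where 0.258% of all genes were higher and 0.549% lower. The median was 0.19 against 0.01 over all genes, 33 of 46 were positive, 5 had an unadjusted p under 0.05 (3000 of all 18227 genes did), and the smallest adjusted p was 0.0854 (FEN1). The authors' deposited table has 8 members higher and 0 lower, where 3.84% of its tested genes were higher and 6.97% lower. They are the primase subunit PRIM2, CCND1, POLA2, MCM3, GINS2, FEN1, GINS4 and RFC5. PRIM2 had 31.5 and 30.3 TPM in wild type and 43.4 and 43.3 TPM with the knockout label, with a log2 fold change of 0.52 (SE 0.14, adjusted p = 0.00575) in the authors' deposited table and 0.48 (adjusted p = 0.188) by limma. MCM3, a helicase subunit, had 111 and 102 against 144 and 144 TPM (0.46 in the authors' deposited table, adjusted p = 0.00112). POLA2 had 22.4 and 18.6 against 31.7 and 31.9 TPM, CCND1 63.1 and 72.1 against 79.5 and 105 TPM, and FEN1 76.6 and 79.2 against 99.9 and 106 TPM. Both libraries labelled knockout were above both wild-type libraries in each of these 5 genes, which the authors' call had selected. The same order held for 26 of the 46 members and 26.1% of all genes, and the reverse for 4 members and 24.5% of all genes. GINS2 (22.1 and 20.3 against 27.9 and 28.8 TPM), GINS4 (32.3 and 26.97 against 41.4 and 41.03 TPM) and RFC5 (45.1 and 46.8 against 56.6 and 58.98 TPM) had the same order. The summed epithelial markers were 9398 and 8750.4 TPM in wild type and 13033 and 12327 TPM with the knockout label, and their part in these values was not tested. FEN1 overlaps FADS2 on the same strand, and the second POLA2 row did not follow the first here (-0.11, adjusted p = 0.776 by limma).

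In H2023 enriched culture limma again called 0 of 46, where 0.796% of all genes were higher and 0.746% lower. The median was -0.20 against 0.06 over all genes, 41 of 46 were negative, 14 had an unadjusted p under 0.05 (3639 of all 18227 genes did), and the smallest adjusted p was 0.055 (CDC45). The median was -0.11 without wild-type replicate 1 and -0.31 without wild-type replicate 2 of this culture. The authors' deposited table has 0 higher and 2 lower, where 2.22% of its tested genes were higher and 2.85% lower. The 2 are ORC1, with 13.7 and 12.1 TPM in wild type and 8.86 and 8.28 TPM with the knockout label (-0.68 in the authors' deposited table, adjusted p = 0.0378), and MCM6, with 49.4 and 39.95 against 32.6 and 28.8 TPM (-0.64, adjusted p = 0.0281). CDC45 had 18.6 and 16.9 against 11.97 and 10.9 TPM (-0.59, SE 0.10), RRM2 60.2 and 65.2 against 34.03 and 45.9 TPM (-0.65, SE 0.20) and CDC6 46.1 and 49.4 against 31.6 and 36.95 TPM (-0.47). In these 5 genes, named for their values, the knockout label was below wild type without overlap. That held for 23 of the 46 members and 18.9% of all genes, the reverse for 3 members and 28.6% of all genes, and 20 members overlapped. The summed epithelial markers were again higher with the knockout label, at 7768 and 8275 TPM against 4331 and 4570 TPM, and their part was not tested. E2F1 had 22.4 and 19.3 against 15.5 and 13.5 TPM (-0.49). CCND1 stood apart, with 24.3 and 30.2 TPM in wild type and 38.2 and 57.2 TPM with the knockout label (0.77, SE 0.23, adjusted p = 0.144 by limma), the largest positive value of the 46. TK1 (0.01) and GINS4 (-0.01) were near 0.

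**Figure D5:**
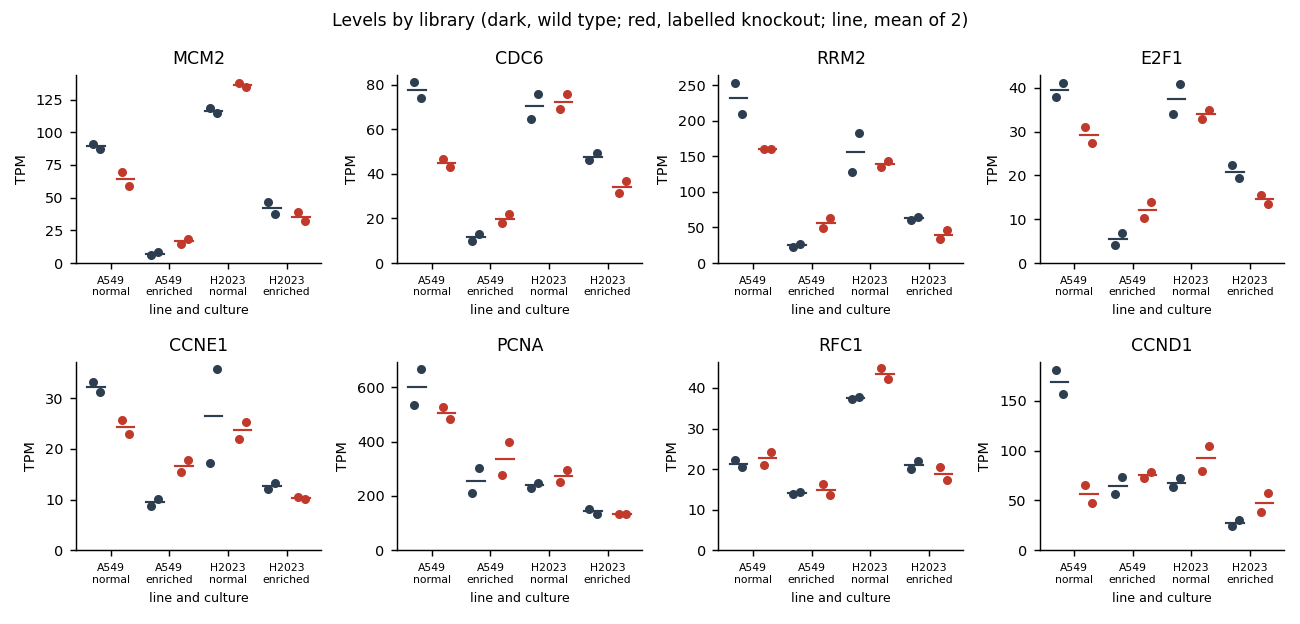
TPM of 8 genes in every library (points), by line and culture, with wild type in dark, the knockout label in red and the mean of 2 as a line. MCM2, CDC6, RRM2 and E2F1 are lowest in A549 enriched wild type, RFC1 is highest in H2023 normal culture, and CCND1 is highest in A549 normal wild type (181 and 156 TPM).

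Whether the knockout label acted differently in the cultures was tested as an interaction in each line. In A549 the effect was higher in enriched than in normal culture for 21 of 46 members and lower for 0, where 3.52% of all genes were higher and 3.13% lower. The median difference was 1.09, against 0.05 over all genes, and 45 of 46 were positive. Put the other way, the change from normal to enriched culture was less negative with the knockout label in 45 of 46 members. CCND1 differed most (1.80, SE 0.25, adjusted p = 0.0123), followed by CLSPN (1.68, SE 0.37), RRM2 (1.66, SE 0.22), CDC25A (1.65, SE 0.29), MCM10 (1.64, SE 0.26) and GINS2 (1.62, SE 0.34). CCND1 reached its value mainly through its fall in normal culture, CLSPN and RRM2 mainly through their rise in enriched culture. RFC1 did not differ beyond its error (-0.01, SE 0.20). The count was 1 without wild-type replicate 1, 2 without knockout replicate 1 and 1 without knockout replicate 2 of normal culture, and 7 without wild-type replicate 1 and 3 without knockout replicate 2 of enriched culture. Each of the 6 named calls was lost without 1 or more single libraries, at adjusted p-values of 0.0506 to 0.124 by limma, while the median difference stayed between 0.88 and 1.29.

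In H2023 the interaction passed for 0 of 46 members, as for 0.0% of all genes in either direction. At an unadjusted p under 0.05 there were 9 members and 1294 of all genes with limma, and the difference taken from the authors' deposited tables passed for 0 members. The median difference was -0.36 against 0.06 over all genes, and 45 of 46 were negative, CCND1 being the exception (0.33, SE 0.32).

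The effect of the knockout label was also compared between the lines, as H2023 minus A549. In normal culture it was higher in H2023 for 12 members and lower for 0, where 6.61% of all genes were higher and 5.46% lower, with a median difference of 0.56. CCND1 differed most (2.01, SE 0.31, adjusted p = 0.00187), and kept its call with any 1 library left out. POLA2 (1.37), GINS2 (1.14), CDC25A (1.04), RFC5 (0.94) and MCM10 (0.94) followed. Their calls were each lost without 1 or more single libraries, at adjusted p-values of 0.0589 to 0.135 by limma. The count was 2 and 3 without A549 wild-type replicate 1 and knockout replicate 2, and 3, 5, 5 and 2 without H2023 wild-type replicates 1 and 2 and knockout replicates 1 and 2.

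In enriched culture the order was turned over. The effect was lower in H2023 for 25 members and higher for 0, where 6.9% of all genes were lower and 9.37% higher, with a median difference of -0.90. RRM2 differed most (-1.80, SE 0.26, adjusted p = 8.47e-04), then MCM6 (-1.75), MCM5 (-1.60), CLSPN (-1.57), E2F1 (-1.54) and UHRF1 (-1.40). These 6 kept their calls with any 1 of the 16 libraries left out. The count was 15 without A549 enriched knockout replicate 2 and 15 without H2023 enriched wild-type replicate 1.

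Between the wild-type lines 16 of 46 members differed in normal culture and 43 in enriched culture. In normal culture 5 members were higher and 11 lower in H2023, where 26.6% of all genes were higher and 14.9% lower, with a median of -0.13 against 0.12 over all genes. With libraries set to a common median the split was 3 higher and 15 lower and the median -0.35. Without A549 wild-type replicates 1 and 2 the median was -0.085 and -0.25, and without those of H2023 -0.045 and -0.20. PCNA was lower in H2023, with 229 and 249 TPM against 533 and 666 TPM (-1.32), as were CCND1 (63.1 and 72.1 against 181 and 156 TPM) and GMNN (24.4 and 24.97 against 65.5 and 54.5 TPM). ORC1 (0.84), PRIM2 (0.82), RFC1 (0.78), MCM6 (0.67) and CHAF1B (0.58) were the 5 that were higher. In enriched culture 41 members were higher and 2 lower in H2023, where 23.4% of all genes were higher and 24.4% lower, with a median of 1.16. MCM2 was 5.79 times as high by mean TPM (2.38 on the log2 scale, SE 0.16) and MCM6, ORC1 and CLSPN followed (2.20, 2.08 and 2.04). The 2 lower were CCND1 (-1.21) and PCNA (-0.81), and POLA1, CCNE1 and TYMS did not pass.

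Other genes of the pathway were counted over whole lists, which were chosen with earlier results of these data known. Those named below were picked for large fold changes. Of 45 other DNA replication genes, 38, 34, 34 and 36 were lower and 2, 1, 0 and 0 higher in enriched culture (A549 wild type and knockout label, then H2023 wild type and knockout label), with medians of -1.48, -0.86, -0.90 and -1.03. Of all genes 21.6%, 9.87%, 17.4% and 19.2% were lower and 19.0%, 10.9%, 3.96% and 7.68% higher. DTL, which targets CDT1 for destruction, fell most in A549 wild type (40.9 and 39.4 to 4.63 and 3.05 TPM, -3.11). SAMHD1, which degrades dNTPs, rose from 10.5 and 9.78 to 42.9 and 20.3 TPM (1.46) with POLD4, a small subunit of the lagging-strand polymerase (1.00). With the knockout label in A549 enriched culture 12 were higher and 2 lower, where 9.39% of all genes were higher and 10.1% lower. The 12 included DTL (1.06), the fork protein WDHD1 (0.74) and the helicase RECQL4 (0.74), and the 2 lower were SAMHD1 (42.9 and 20.3 to 9.68 and 9.32 TPM, -1.54) and POLD4 (-1.03). In A549 normal culture 6 were lower and 0 higher, where 8.83% of all genes were lower and 6.52% higher. TIPIN, of the fork protection complex, was among the 6 (-0.65). In H2023 0 passed in normal culture, with 5 of 45 at an unadjusted p under 0.05 against 3000 of all 18227 genes. In enriched culture 1 was lower, as were 0.746% of all genes. It was DBF4, the partner of the kinase that fires origins (18.2 and 16.8 to 8.93 and 10.4 TPM, -0.80).

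Of 35 other G1/S regulators 32 were measured. In the culture comparisons 20, 14, 17 and 17 were lower and 2, 2, 1 and 1 higher, in the same order. The shares of all genes are those given for the other replication genes. The CDK inhibitors CDKN1A (p21) and CDKN1B (p27) were the ones that rose in A549. CDKN1A rose from 42.9 and 25.8 to 102 and 66.9 TPM in wild type (1.29, SE 0.27) and from 53.2 and 38.6 to 238 and 229 TPM with the knockout label (2.34). In H2023 the inhibitor CDKN2D rose, by 1.04 in wild type and 1.56 with the knockout label. MYBL2, a transcription factor of cycling cells, fell in all 4, from 97.01 and 91.1 to 11.2 and 10.98 TPM in A549 wild type (-2.98). The repressor E2F8 fell as well (-2.44, -1.55, -1.47 and -1.76). With the knockout label in A549 enriched culture 5 were higher and 1 lower, where 9.39% of all genes were higher and 10.1% lower. The 1 lower was the inhibitor CDKN2C (-0.48). The 5 included CDKN1A (102 and 66.9 to 238 and 229 TPM, 1.49), cyclin D3 (CCND3, 0.95), CDK2 (0.73) and CDK4 (0.64). CDKN1A is an inhibitor of these kinases, so the genes that rose here include opposing roles. In A549 normal culture 2 of 32 were lower, MYBL2 (-0.92) and the E2F partner TFDP1 (-0.43), a share not above the 8.83% of all genes. In H2023 0 passed in normal culture, with 2 of 32 at an unadjusted p under 0.05 against 3000 of all 18227 genes. In enriched culture CKS1B, a CDK subunit, was lower (-0.63), as were 0.746% of all genes.

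G2/M and mitosis genes (32), which mark cells later in the cycle, were set beside the S-phase group. All 32 fell in each culture comparison, where 21.6% and 9.87% (A549) and 17.4% and 19.2% (H2023) of all genes were lower. Their medians were -2.39 and -1.77 in A549 and -1.38 and -1.91 in H2023. CDC20, the activator of the anaphase ligase, fell from 162 and 124 to 18.2 and 13.3 TPM in A549 wild type (-3.11) and from 303 and 309 to 43.6 and 43.3 TPM in the H2023 libraries labelled knockout (-2.79). With the knockout label 2 of 32 were lower in A549 normal culture (ECT2 and CDK1), a share not above the 8.83% of all genes. In A549 enriched culture 9 were higher, where 9.39% of all genes were. In H2023 normal culture 0 passed (6 at an unadjusted p under 0.05, against 3000 of all 18227 genes). In H2023 enriched culture 3 were lower (BUB1, KIF2C and CDC20), where 0.746% of all genes were. The medians were -0.22, 0.42, 0.15 and -0.40, of the same signs as those of the 46 genes. TOP2A, which untangles copied DNA, rose in A549 enriched culture from 26.9 and 28.8 to 54.1 and 67.7 TPM (1.09, SE 0.12). BUB1, a spindle checkpoint kinase, fell in H2023 enriched culture from 23.4 and 21.9 to 12.7 and 12.4 TPM (-0.80, SE 0.09), in the comparison where limma called 0 of the 46. The interaction in A549 passed for 3 of the 32 and 21 of the 46, and whether the lists differ was not tested.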

How the data were processed

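RNA was measured in 16 stranded mRNA libraries, 2 in each of 8 groups. The authors deposited 4 tables of TPM, 1 per line and culture, with a signal column (the mean normalised count of the 4 libraries), a log2 fold change, standard error and adjusted p-value of knockout over wild type, in columns named as DESeq2 names them, per the file headers. HISAT2, StringTie and GRCh38 are named in the submitters' processing notes, and versions are not given there. Repeated identifiers were used once, leaving 18227 genes. Raw counts were not used here, so depth per library is unknown.

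log2(TPM + 1) was fitted in limma 3.58.1 (R 4.3.3) (variance trended on level, no filter), over the 8 libraries of a line or, for contrasts between lines, all 16, two-sided, with Benjamini-Hochberg adjustment over all genes and a threshold of 0.05. The fit was also run on simulated data with errors drawn independently for each gene. Such data lack the shifts shared by most members between the replicates of A549 in either culture and of H2023 enriched wild type. The run therefore does not bear on how stable the counts are. Beside it stand the adjusted p-value and log2 fold change deposited by the authors. The members and gene lists were chosen with earlier results of these data known. Named with values were up to 8 members per direction and comparison with the largest fold change past the threshold (6 for differences between effects; by the authors' table where limma called none), plus 21 genes named whatever they did. Up to 4 genes per direction were named from other lists, and 1 gene that this rule selects is not reported here. Alternatives were another pseudocount (0.1), a mean of at least 1 TPM, no mitochondrial genes, a common median, other sets of libraries, a replicate block, leaving out each library, and the authors' tables.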

Additional observations from a re-analysis of the deposited data

Results flagged for a closer look

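These results differed between cultures or lines by a direct test of the difference. In A549 the effect of the knockout label differed between cultures for 21 of the 46 genes, all higher in enriched culture. The 6 with the largest differences were CCND1 (1.80), CLSPN (1.68), RRM2 (1.66), CDC25A (1.65), MCM10 (1.64) and GINS2 (1.62), each a difference of log2 fold changes in limma.

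Between lines the effect differed for 12 genes in normal culture, all higher in H2023, led by CCND1 (2.01), POLA2 (1.37), GINS2 (1.14), CDC25A (1.04), RFC5 (0.94) and MCM10 (0.94). In enriched culture it differed for 25 genes, all lower in H2023, led by RRM2 (-1.80), MCM6 (-1.75), MCM5 (-1.60), CLSPN (-1.57), E2F1 (-1.54) and UHRF1 (-1.40). The knockout of each line is 1 clone, so line and clone cannot be told apart. No group had enough libraries for a check on single outlying samples.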

How the results depend on the processing

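No median, and no gene that the naming rule picked in a comparison for its call, changed sign under the alternatives run. Members near 0 did, such as TK1 in H2023 enriched culture (0.01 by limma, -0.07 in the authors' deposited table). Member counts under the alternatives, or with single libraries left out, stand here without the share of all genes. They do not show whether members moved more than other genes did. The counts that moved were these. In A549 normal culture, 6 members called became 10 with a mean of at least 1 TPM, 16 with a replicate block, 14 with 16 libraries and 22 in the authors' deposited tables. In A549 enriched culture 23 became 9 with 4 libraries. In H2023 normal culture 0 became 8, and in H2023 enriched culture 0 became 2, in the authors' deposited tables, and the latter became 1 with a mean of at least 1 TPM, without mitochondrial genes, with a common median and with 16 libraries. For the interaction in A549, 21 became 32 with 16 libraries. The authors' deposited tables hold only knockout over wild type within a line and culture, and no test of a difference. Differences derived here from their fold changes gave 33 members for the A549 interaction. For the difference between lines in normal culture they gave 21 in place of 12. With a common median the median log2 fold change was -0.28 for the knockout label in H2023 enriched culture, -0.92 and -1.37 for culture in H2023, -0.45 for the H2023 interaction and -0.35 between lines in normal culture. Without mitochondrial genes the H2023 culture medians were -0.93 and -1.31, and with a pseudocount of 0.1 those of A549 were -2.67 and -1.53. RFC4 in A549 normal culture (adjusted p = 0.0712) and CLSPN (0.0568) and E2F1 (0.0705) in A549 enriched culture were not called with 4 libraries, nor was the CLSPN interaction with a pseudocount of 0.1 (0.0636). The cause was not tested.

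Leaving out single libraries gave 1 to 10 and 6 to 25 members for the knockout label in A549 normal and enriched culture, 1 to 25 for the A549 interaction, and 2 to 14 and 15 to 28 for the line differences. Medians ranged from 0.50 to 0.80 (A549 enriched), -0.31 to -0.11 (H2023 enriched), -2.64 to -2.35 and -1.48 to -1.28 (A549 culture), -1.23 to -1.08 (H2023 wild-type culture), 0.88 to 1.29 and -0.43 to -0.26 (interactions), -0.25 to -0.045 and 1.01 to 1.24 (lines) and -0.999 to -0.712 (line difference, enriched). A lone library left in a group was taken to vary like the others. Same-numbered replicates share only a number in the labels. Over 14823 genes with a mean of at least 1 TPM, their deviations from group means correlated with r of 0.027 to 0.461. Among the members, replicate 2 was below replicate 1 in 38 of 46 in both genotypes of A549 normal culture. In A549 enriched culture it was above in 40 of 46 in wild type and 42 of 46 with the knockout label. With 2 pairs per comparison no pairing was taken from these values. The replicate block left 46, 43, 43 and 46 culture calls. RFC3 in A549 normal culture had an adjusted p of 0.0525 with the block. It took the 23 calls of A549 enriched culture to 27 and the A549 interaction from 21 to 27. Depth is unknown for single libraries, and low members such as CLSPN and CCNE2 are the least precise.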
